A study of Drosophila melanogaster with 6 samples.

Results

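The CD36 scavenger receptor family of Drosophila melanogaster was followed in adult female antennae with and without a block of programmed cell death (PCD). The 7 members, Snmp1, Snmp2, crq, emp, pes, ninaD and santa-maria, were taken by their FlyBase symbols, whatever their values, out of 17698 genes in the count tables, and all 7 had a row. A further 7 genes of the same family, which carry mostly systematic names, were set beside them. Antennae came from flies with the genotype peb-Gal4/+;Or49a-GFP/+ (control) or peb-Gal4/+;Or49a-GFP/UAS-p35 (PCD-blocked), so that the Gal4 driver and the Or49a-GFP reporter were common to both groups and p35, a caspase inhibitor from a baculovirus, was present in one. Each group had 3 libraries in 3 labelled sample pairs, and each library pooled the antennae of approximately 350 flies, whose age is not given in the sources used here. The driver peb-Gal4 directs p35 to cells that express pebbled, and the labels state the expression only as being in the antennae. Poly(A) RNA was sequenced, and 15588725 to 17808516 reads per library were assigned to genes. Transcripts of p35 itself were not analysed here.

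CD36 family proteins cross the membrane at both ends and hold a large extracellular domain that binds lipids, lipoproteins or modified particles. In the antenna the best known member is SNMP1, which sits in the ciliary membrane of pheromone-sensing neurons of trichoid sensilla and is needed there for responses to the male pheromone cis-vaccenyl acetate, together with the receptor Or67d, its co-receptor Orco and the secreted binding protein Lush. Other members serve in other tissues: croquemort (crq) in uptake of apoptotic cells, peste (pes) in uptake of bacteria by phagocytes, and ninaD and santa-maria in the uptake of carotenoids for visual pigment synthesis.

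Snmp1 and Snmp2 transcripts were higher in PCD-blocked antennae, by 1.30-fold and 1.64-fold, and those of emp and santa-maria were lower, at 0.81 and 0.80 of the control level. Transcripts of pes, present at a few CPM, rose 1.38-fold. The level of crq was close to that of controls and did not pass the test, and ninaD was too low to be tested. CPM is the count per 1e+06 reads of the library total, after that total was adjusted by the TMM scaling factor of edgeR. A gene was called at an adjusted p under 0.05 in the edgeR quasi-likelihood test with the sample pair as a block. Of the 6 tested members 3 were higher and 2 were lower. Among all 9181 tested genes 27.7% were called, 14.3% higher and 13.3% lower. The median log2 fold change was 0.15 over the tested members and 0.0008 over all tested genes.

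Snmp1 (FBgn0260004) lies on chromosome 3R, 21165167 to 21168205, on the minus strand of the BDGP6.54 assembly. Its level was 1523, 1341 and 1463 CPM in control libraries 1 to 3 and 1912, 1800 and 1906 CPM in PCD-blocked libraries 1 to 3. All PCD-blocked libraries lay above all controls, and library 2 was the lowest in both groups. Within the sample pairs the log2 ratio was 0.33, 0.42 and 0.38, and the fitted log2 fold change was 0.38 ± 0.03 (SE), with an adjusted p = 7.75e-05 in edgeR. The absolute change exceeded that of 83.5% of tested genes. SNF4Agamma, a kinase subunit gene on the opposite strand whose span overlaps Snmp1 without shared exon bases, rose by 0.15.

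Snmp2 (FBgn0035815, chromosome 3L, 7733250 to 7743041, minus strand), the second sensory neuron membrane protein gene, is known in moths from the support cells around the neurons. It was measured at 39.7, 36.4 and 44.4 CPM in controls and at 69.7, 59.1 and 69.3 CPM in PCD-blocked antennae. The groups did not overlap, and the log2 ratio within pairs was 0.81, 0.70 and 0.64. The fitted change of 0.72 ± 0.05 (SE, adjusted p = 1.56e-05 in edgeR) was larger in size than that of 93.6% of tested genes. In every pair the log2 change of Snmp1 was smaller than that of Snmp2, by 0.48, 0.28 and 0.26. With 3 pairs an exact two-sided sign-flip permutation test cannot go below p = 0.25, which was its value here. CG32373, a low-abundance gene on the opposite strand that shares no exon bases with Snmp2, rose by 0.86.

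Of emp and crq, emp fell and crq did not pass the test. Transcripts of emp (FBgn0010435, chromosome 2R, 24976456 to 24986070), an epithelial member, were at 1016, 962 and 911 CPM in controls and at 835, 767 and 733 CPM in PCD-blocked antennae. All PCD-blocked libraries lay below all controls, with a log2 fold change of -0.31 ± 0.03 (SE, adjusted p = 0.000167 in edgeR). Levels of crq (FBgn0015924, chromosome 2L, 448254 to 453024) were 169, 160 and 157 CPM in controls and 159, 153 and 149 CPM in PCD-blocked antennae. The groups overlapped, although the PCD-blocked library was the lower one in each pair, and the log2 fold change was -0.08 ± 0.03 (SE, adjusted p = 0.0982 in edgeR). Of the exon bases of crq, 15.7% lie opposite exons of ex, which had a log2 fold change of -0.03 and was not called.

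Counts of pes (FBgn0031969, chromosome 2L, 7986786 to 7994184) were 83, 83 and 89 in controls and 114, 100 and 130 in PCD-blocked libraries, which is 4.78, 4.80 and 5.14 CPM against 7.26, 5.79 and 7.30 CPM. The groups did not overlap, and the log2 fold change was 0.46 ± 0.13 (SE, adjusted p = 0.0279 in edgeR). This call was lost with DESeq2 (adjusted p = 0.385), without pair 1 (0.154) and without pair 3 (0.0899).

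Of the 2 carotenoid transport genes, santa-maria fell and ninaD was too low to be tested. Transcripts of santa-maria (FBgn0025697, chromosome 2L, 7445355 to 7451244), which in the fly head takes up carotenoids in cells that also contain the cleaving enzyme NinaB, were at 117, 124 and 155 CPM in controls and at 93.6, 105 and 118 CPM in PCD-blocked antennae. Control 1 and PCD-blocked 3 were nearly equal, so the groups overlapped, but in every pair the PCD-blocked library was lower, by -0.32, -0.23 and -0.40 on the log2 scale. The fitted change was -0.32 ± 0.04 (SE, adjusted p = 0.000459 in edgeR). Without the sample pair as a block, adjusted p = 0.0589 and the call was lost. Of its exon bases, 9.49% lie opposite exons of CG5973, which fell from 1557 ± 98.4 to 1069 ± 55.5 CPM (SD, n = 3 per group), and the part of those reads in the santa-maria count was not tested. For ninaD (FBgn0002939, chromosome 2L, 18081628 to 18083608), known for carotenoid uptake in the gut, 2, 0 and 5 reads were counted in control libraries and 8, 5 and 13 in PCD-blocked libraries. The expression filter removed it. With no filter its log2 fold change was 1.95 ± 0.75 (SE) and it did not pass (adjusted p = 0.0875 in edgeR).

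**Figure D1:**
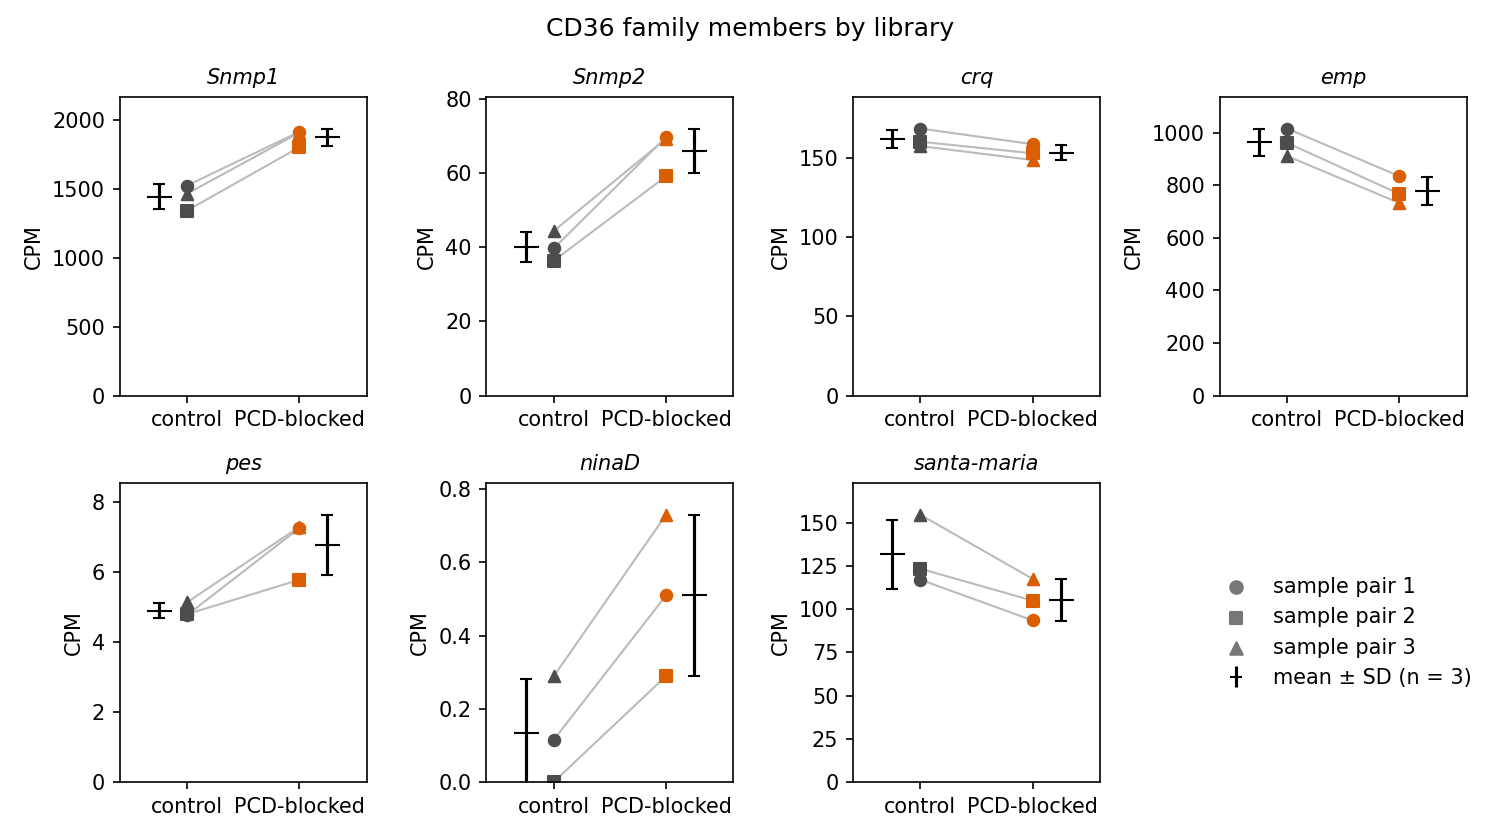
Level of each of the 7 members in every library, in CPM on linear axes that start at 0, with lines joining the libraries of a sample pair and bars for mean ± SD of 3 libraries (the lower bar of ninaD is cut at 0). Snmp1, Snmp2 and pes lie higher in every PCD-blocked library, emp lies lower, and crq and santa-maria overlap between groups while being lower within each pair.

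Of the 6 tested members 3 lay above and 1 lay below the controls with no overlap of CPM. Among all tested genes the groups were apart in this way for 38.7%, with 19.9% above and 18.8% below. Spread between libraries of a group was smallest for crq, with a coefficient of variation of 3.55% in controls and 3.27% in PCD-blocked antennae, and larger for santa-maria, at 15.3% and 11.4%.

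Of the 7 other family genes 4 were abundant enough for the test, and 3 of these fell, against 13.3% of all tested genes. CG40006 was at 723, 744 and 689 CPM in controls and at 545, 537 and 528 CPM in PCD-blocked antennae, a log2 fold change of -0.42 ± 0.03 (SE, adjusted p = 4.01e-05 in edgeR). CG10345 was at 529, 538 and 592 CPM in controls and at 428, 425 and 444 CPM in PCD-blocked antennae (-0.35 ± 0.03 SE, adjusted p = 0.000132 in edgeR). For both genes every PCD-blocked library lay below every control. CG14892, which lies opposite 6.98% of the exon bases of CG10345, fell by 0.66. The third gene, dsb, debris buster, is known from the clearance of degenerating dendrites by epidermal cells. It went from 15.1, 9.25 and 10.3 CPM to 8.79, 8.22 and 8.25 CPM. Control 1 stood apart from the other controls, and the call for dsb (log2 fold change -0.43 ± 0.12 SE, adjusted p = 0.0326 in edgeR) was lost without pair 1 (log2 fold change -0.25, adjusted p = 0.223), without pair 3 (0.0536), without the pair as a block (0.0821) and with DESeq2 (0.260).

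CG3829 had a log2 fold change of 0.27 ± 0.18 (SE) at mean levels of 3.19 ± 0.471 and 3.88 ± 0.997 CPM (SD, n = 3) without and with the block, and was not called (adjusted p = 0.327 in edgeR). CG2736, CG7227 and CG31741 had 22, 2 and 1 reads over all control libraries and 15, 4 and 0 over all PCD-blocked libraries, and were not tested. Levels under 3 reads in a library, or 0.168 to 0.191 CPM, were not resolved. Over the whole family of 14 genes, 10 were tested, 3 were higher and 5 were lower, with a median log2 fold change of -0.19. Among all tested genes 14.3% were higher and 13.3% lower.

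**Figure D2:**
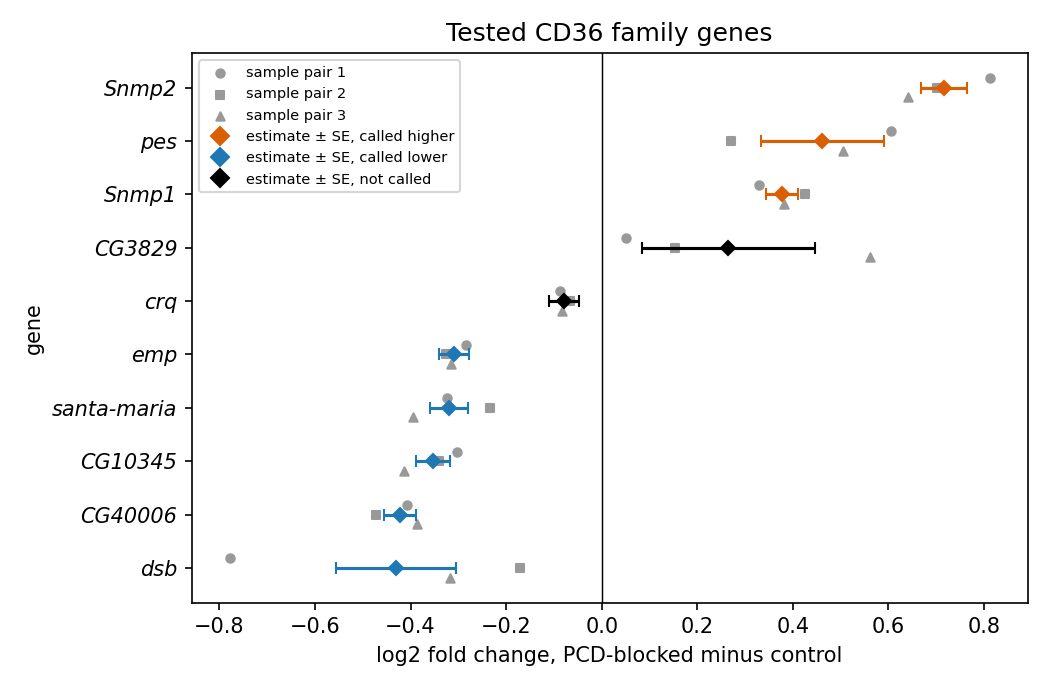
Log2 fold change of the 10 tested family genes, PCD-blocked minus control, with diamonds for the fitted estimate ± SE and grey symbols for the ratio within each sample pair. Snmp2, pes and Snmp1 lie to the right of 0, crq stays near 0 at -0.08, and emp, santa-maria, CG10345, CG40006 and dsb lie to the left in all 3 pairs.

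To compare levels between genes, CPM was divided by the length of the merged exons of each gene. In controls Snmp1 stood first at 633 ± 40.6 CPM per kb (SD, n = 3). CG40006 (278 ± 10.7), emp (273 ± 14.8) and CG10345 (218 to 244 CPM per kb) formed a second tier, in which the libraries of CG40006 and emp overlapped. After them came crq at 56.9 ± 2.02, santa-maria at 23.7 ± 3.62 and Snmp2 at 14.2 ± 1.42 CPM per kb. Levels of dsb, pes and CG3829 were 2.47 ± 0.665, 1.28 ± 0.0529 and 0.997 ± 0.147 CPM per kb. In PCD-blocked antennae Snmp1 was again first, at 821 ± 27.6 CPM per kb. Snmp2, at 23.3 ± 2.11, then stood above santa-maria, at 18.9 ± 2.16 CPM per kb, although their libraries overlapped, and emp stood above CG40006, also with overlap.

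The summed level of the family was 1512 ± 43.5 CPM per kb in controls and 1529 ± 38.4 CPM per kb in PCD-blocked antennae (SD, n = 3), and the groups overlapped (exact two-sided permutation test over libraries, p = 0.6). Its makeup differed. Snmp1 held 40.1% to 43.0% of the summed level per kb in control libraries and 53.0% to 54.5% in PCD-blocked libraries, with no overlap (exact two-sided permutation test, p = 0.1, the smallest that 3 against 3 libraries allow). The shares of CG40006 and emp went from 18.4% ± 1.07 to 13.5% ± 0.339 and from 18.1% ± 0.869 to 14.4% ± 0.810.

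**Figure D3:**
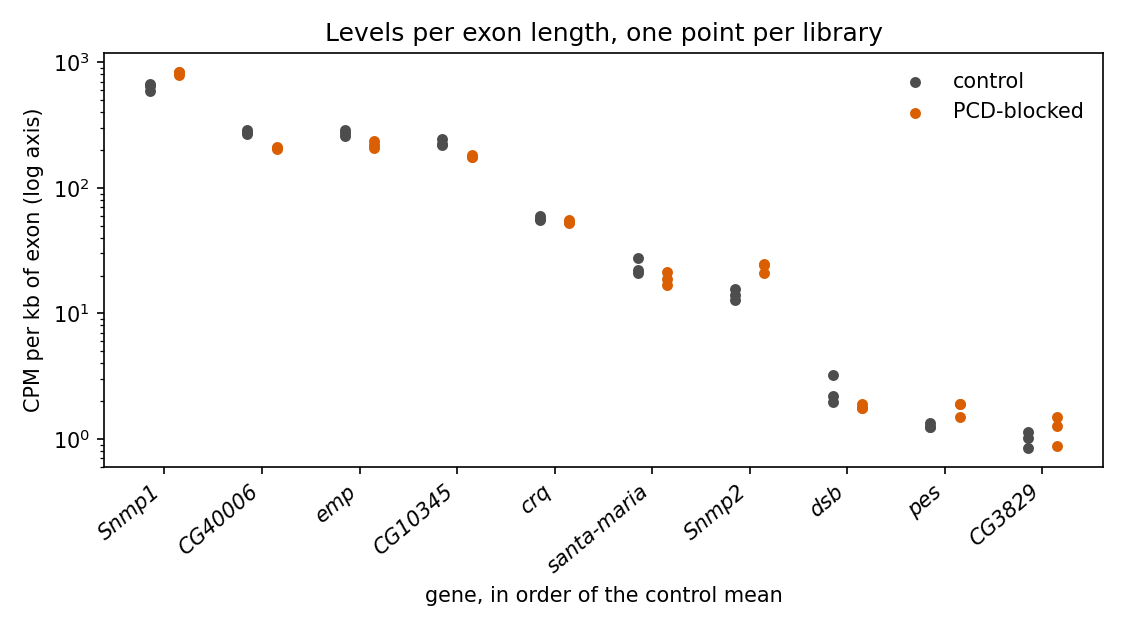
Level per kb of merged exons for the 10 tested family genes, 1 point per library on a log axis, in the order of the control mean. Snmp1 is above all other family genes in every library, and Snmp2 changes place with santa-maria between the groups.

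Snmp1 was then set beside the receptors of the sensilla in which it is known. Trichoid and intermediate sensilla house neurons tuned by 13 listed Or genes, all of which were tested. Of these, 5 rose and 1 fell, against 14.3% higher and 13.3% lower among all tested genes. Or65a, Or65b and Or65c, which share a neuron of the at4 trichoid sensillum, rose by 2.28, 1.97 and 2.06 on the log2 scale, and Or43a and Or19a, receptors of an intermediate sensillum, by 1.42 and 3.43. Or65b, for example, went from 14.5, 11.2 and 10.7 CPM to 51.2, 45.4 and 46.3 CPM. Or19a, at under 1 CPM in controls, had 17, 13 and 8 reads there and 114, 147 and 142 in PCD-blocked libraries. The receptors Or67d and Or47b, which respond to odours of other flies, were not called. Or67d was at 57.8, 56.4 and 49.3 CPM in controls and at 50.9, 43.9 and 49.1 CPM in PCD-blocked antennae (-0.18 ± 0.06 SE, adjusted p = 0.0697 in edgeR), and Or47b was at 82.9, 75.2 and 68.0 CPM against 74.5, 67.6 and 67.4 CPM (-0.11 ± 0.04 SE, adjusted p = 0.0942). Without pair 3 (adjusted p = 0.0168 in edgeR) and with no expression filter (0.0308), Or67d was called lower. Or88a fell by 0.33 (adjusted p = 0.00751), a call lost without pair 2 (0.0962) and with DESeq2 (0.0903), and 85.9% of its exon bases lie opposite an antisense RNA gene. Log2 fold changes of the receptors that were not called were -0.24 for Or2a, -0.14 for Or13a, 0.08 for Or19b, -0.16 for Or23a and 0.07 for Or83c. Or23a shares 5.06% of its exon bases with Prosbeta4R2 on its strand, and Or19a and Or19b are near copies whose reads may be split.

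Added together, the 13 receptors reached 352, 335 and 315 CPM in the control libraries, all below the 449, 422 and 426 CPM of the PCD-blocked libraries. The log2 change of Snmp1 minus that of this sum was -0.02, 0.09 and -0.06 in pairs 1 to 3, with a mean of 0.003 ± 0.08 (SD, n = 3 pairs, exact sign-flip permutation test, p = 1.0), so the difference was smaller than its spread between pairs and its sign varied. Per kb, the ratio of Snmp1 to the summed receptors was 2.35 ± 0.174 in controls and 2.38 ± 0.0720 in PCD-blocked antennae. Both measures depend on which receptors were added, as the sum joins 5 called higher, 1 called lower and 7 not called. On the log2 scale Or88a, which was called lower, changed by -0.33, and Or67d and Or47b, which were not called, by -0.18 and -0.11. Relative to Orco, which is shared by Or neurons of all sensilla and was not called (log2 fold change 0.04 ± 0.03 SE, adjusted p = 0.382 in edgeR), Snmp1 was higher in every pair, by 0.29, 0.40 and 0.32 on the log2 scale. An exact sign-flip permutation test over the 3 pairs gave p = 0.25, the smallest it allows. The ratio of Snmp1 to Orco per kb was 0.430, 0.372 and 0.421 in controls and 0.527, 0.490 and 0.527 in PCD-blocked antennae, without overlap. An exact two-sided permutation test over libraries, which ignores the pairs, gave p = 0.1, the smallest possible. In whole antennae, a change in the number of cells of a type and a change in RNA per cell cannot be told apart.

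**Figure D4:**
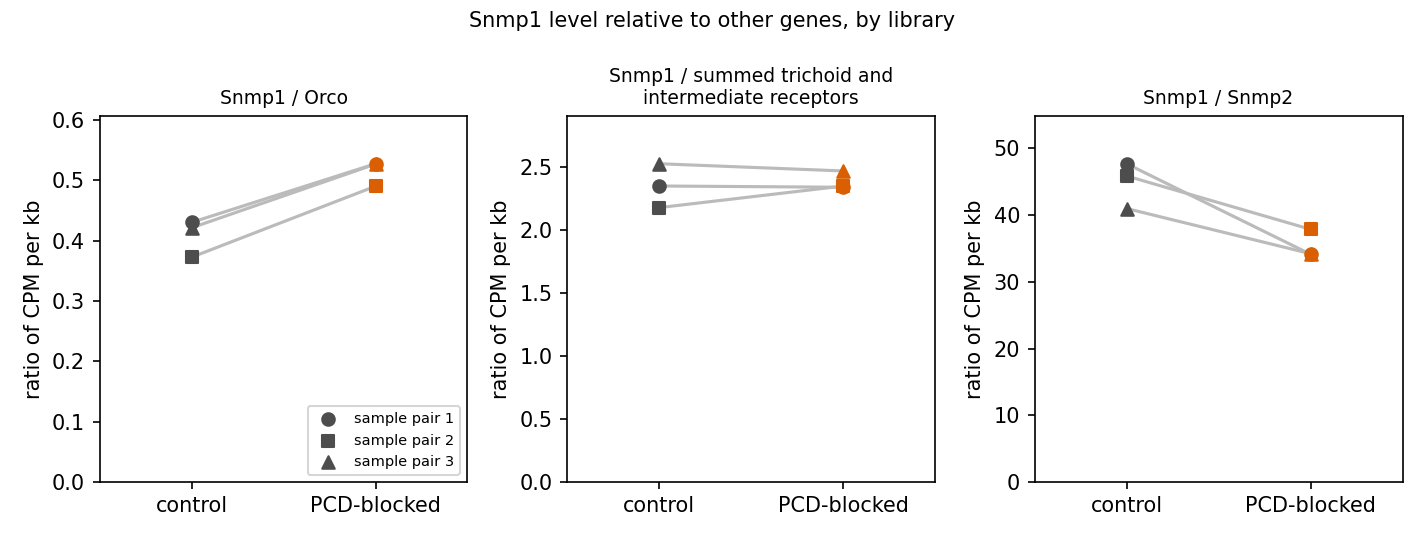
Ratio of the Snmp1 level to Orco, to the sum of the 13 trichoid and intermediate receptors and to Snmp2, each in CPM per kb on axes from 0, with lines joining sample pairs. The ratio to Orco is higher in every PCD-blocked library, the ratio to the summed receptors overlaps between groups, and the ratio to Snmp2 is lower.

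Transcripts of 2 secreted partners of pheromone detection fell. Those of lush, which encodes the odorant-binding protein required with SNMP1 for cis-vaccenyl acetate responses, were at 2105, 2014 and 2001 CPM in controls and at 1536, 1596 and 1534 CPM in PCD-blocked antennae. Every PCD-blocked library lay below every control, and the log2 fold change was -0.39 ± 0.04 (SE, adjusted p = 8.10e-05 in edgeR). Est-6, a secreted esterase linked to the breakdown of pheromone esters, went from 2743, 2459 and 2568 CPM to 1919, 1883 and 1803 CPM. Its log2 fold change was -0.47 ± 0.04 (SE, adjusted p = 4.01e-05 in edgeR). Obp83a and Obp83b, binding protein genes of trichoid sensilla, had log2 fold changes of -0.07 and -0.11 and were not called, nor were ppk25 (-0.31), a channel subunit gene of pheromone-sensing neurons, and ATP8B (0.06), a lipid flippase gene needed in Or67d neurons. Of the 13 genes listed for lipid pheromone detection apart from Snmp1, 3 were higher and 3 were lower, and the 3 higher ones were the Or65 genes. The median log2 fold change of the 13 genes was -0.11. Among all tested genes 14.3% were higher and 13.3% lower. With no expression filter, or without pair 3, 5 were lower, and Obp83b was called lower with DESeq2 and limma-voom.

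**Figure D5:**
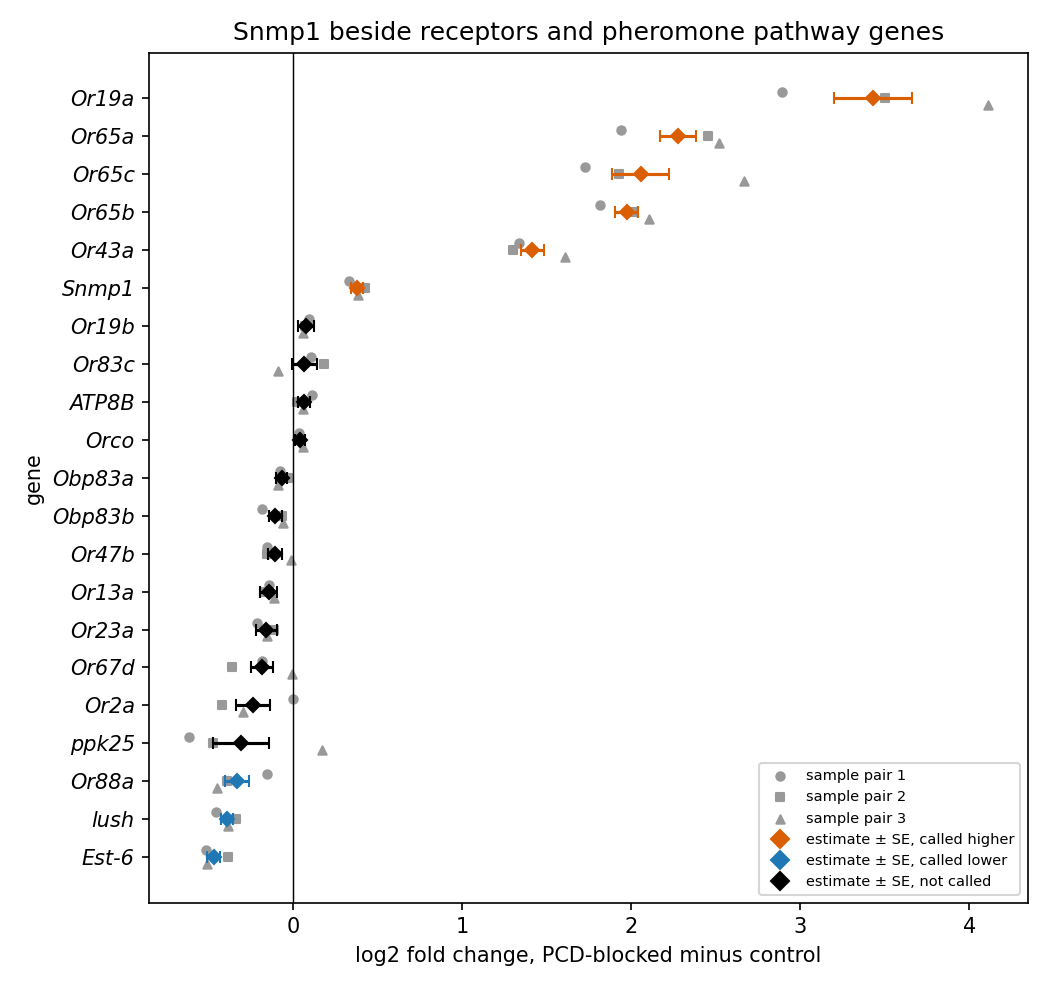
Log2 fold change of Snmp1, the 13 trichoid and intermediate receptors and the other listed pheromone detection genes, with diamonds for the estimate ± SE and grey symbols for sample pairs. Snmp1 at 0.38 stands between 5 risen receptors and a larger number of genes near or below 0, with Or88a, lush and Est-6 called lower.

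Genes that work with the other members were counted too, against 14.3% higher and 13.3% lower among all tested genes. Of 4 listed carotenoid and retinoid genes, 2 passed the filter and both rose: ninaB, which encodes the carotenoid-cleaving enzyme, from 75.8, 74.5 and 77.9 CPM to 104, 100 and 93.5 CPM (0.38 ± 0.04 SE, adjusted p = 0.000325 in edgeR), and pinta, for a retinoid-binding protein, by 0.79. The direction was thus opposite to that of santa-maria. Between 2.91% and 3.74% of ninaB exon bases lie opposite each of 2 other genes. Of 11 listed phagocytosis genes 10 were tested and 2 fell, PGRP-LC, a receptor for bacterial peptidoglycan, by 0.42 and ced-6, an engulfment adaptor, by 0.14. The call for ced-6 was lost without pair 1 (adjusted p = 0.0531 in edgeR), without pair 2 (0.177), without the pair as a block (0.0627) and with DESeq2 (0.0555). The engulfment receptor gene drpr had a log2 fold change of -0.04 and was not called (adjusted p = 0.409), and eater, a phagocyte receptor gene at under 2 CPM, had one of 0.79 (adjusted p = 0.0996). Shark, the kinase gene downstream of drpr, had one of -0.18 (adjusted p = 0.0726).

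Markers of cell types were examined because several members are known from cells outside the sensory neurons. For comparison, 14.3% of all tested genes were called higher and 13.3% lower. Of 8 support cell markers 2 were higher and 3 lower, and their sum was 25144 to 26255 CPM without the block and 24223 to 25031 CPM with it. That sum, in which Obp83a was the most abundant gene, was lower in every PCD-blocked library. The higher markers were nompA (log2 fold change 0.78) and Obp28a (0.34). The lower ones were lush (-0.39), Obp59a (-0.18) and Obp84a (-0.16), so the list was mixed beside the rise of Snmp2 and the fall of emp. Libraries of Obp84a overlapped between groups, and 81.2% of its exon bases lie opposite exons of Dtwd2. For Obp59a, 22.2% lie opposite exons of CG30259. Of 6 neuronal markers 1, Ir25a, was higher, with a sum of 5328 to 5491 CPM against 5656 to 5766 CPM. Of 7 tested hemocyte markers out of 9, 1, Pxn, was higher and 6 were not called. Pxn was at 5.81, 6.71 and 11.8 CPM in controls and at 11.5, 17.5 and 31.8 CPM in PCD-blocked antennae, with overlap. The sum of all 9 was 27.8 to 35.7 CPM against 36.0 to 58.3 CPM, beside the rise of pes. Most of the rise in this sum was Pxn, with means of 8.12 and 20.3 CPM where the sums had means of 32.6 and 48.0 CPM. Control means were under 1 CPM for 5 of the 9. Of 5 glial markers repo was higher, Gs2 was lower, and nrv2, moody and Eaat1 were not called. The sums, mostly Gs2 at means of 3290 and 2788 CPM, were 3792 to 3845 CPM against 3224 to 3363 CPM. Of 7 fat body markers, 4 were tested, with 1 higher and 2 lower, sums of 44.9 to 177 CPM against 68.6 to 80.3 CPM, and no read of Lsp1alpha. Control 1, in which dsb was high, held the 177 CPM, with 70.6 CPM of the yolk protein gene Yp3 against 19.6 and 9.24 CPM in the other controls. Of 11 photoreceptor markers 5 were tested and 1, the channel gene trp, was higher, at 5.12, 5.20 and 6.30 CPM in controls against 13.4, 14.6 and 12.3 CPM (log2 fold change 1.28, adjusted p = 0.000105 in edgeR). In this list 8 had means under 1 CPM, among them the main rhodopsin gene ninaE at mean levels of 0.115 and 0.138 CPM, and the summed levels, mostly norpA, overlapped at 307 to 334 CPM and 311 to 346 CPM. The part of these cell types in the changes of the family was not tested.

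The genes whose pattern over the 6 libraries was most like that of Snmp1, by Pearson correlation of log2(CPM + 1) after subtraction of each pair's mean, were MtnF, Arts, Con, ktub and CG10341. For Snmp2 they were salm, gkt, Sting, CG42237 and mub. After this subtraction only 3 values per gene are independent, and 305 and 291 of 6684 genes reached an r above 0.99, so the order among them has little resolution. Likeness in pattern did not mean a change of like size. Among those like Snmp1, log2 fold changes were 1.14 for MtnF, 0.61 for Arts, 0.57 for Con, a cell adhesion gene, 0.59 for ktub and 0.23 for CG10341, which was not called (adjusted p = 0.0534 in edgeR). Among those like Snmp2, they were 0.17 for salm, which was not called (adjusted p = 0.163), 0.31 for gkt, 0.95 for Sting, an innate immune gene, 0.18 for CG42237 and 0.17 for mub.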

How the data were processed

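The values are read counts per gene, deposited by the authors for each library separately. Tools in the submitters' processing notes are HTSeq 0.9.1, STAR 2.5.3a and cutadapt 1.8, with the build BDGP6. How strand was treated, and with which annotation, is not given in the sources used here, so reads of genes with overlapping exons may be mixed. Per the labels' protocols the library kit was directional. Of 17698 gene rows, 17560 matched a symbol. The 5 rows that name no gene (11.9% to 13.5% of counts) were left out. Positions, exon lengths and overlaps are from the Ensembl annotation of BDGP6.54, and sequences were not used here.

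All genes were fitted with edgeR 4.0.16 (R 4.3.3), with TMM scaling, the default expression filter and the sample pair as a block, because the labels name sample pairs and the series text calls the design paired. Deviations of paired libraries from their group means correlated at 0.143, 0.205 and -0.10. Benjamini-Hochberg adjustment ran over 9181 genes, and 2539 of them, or 27.7%, were called at 0.05. The SE is the log2 fold change divided by the root of the test statistic. Replicates are pooled collections of flies, and p-values measure the spread between these. Within groups, libraries differed by more than sampling noise (chi-square over its degrees of freedom, 4.12 to 10.6), so none was deposited in duplicate. On simulated counts for this comparison and 9181 genes, with 200 changed in each of 5 draws, 50.0% of 1.2-fold and 80.8% of 1.5-fold changes were recovered, and 3.53% of calls were unchanged genes. The simulated share of changed genes was far below the 27.7% called here, and no difference between pairs was simulated. These rates may therefore not hold for the data.

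The members and gene lists were chosen with earlier results of these data known. Named genes are all members and family genes, all listed receptors and pheromone genes, up to 4 of the carotenoid and phagocytosis lists with the smallest p, genes overlapping a family gene, and the 5 most alike to Snmp1 and to Snmp2 with a mean of at least 10 CPM. The genes drpr and NimC1 were added after their values were seen. So were most of the named marker genes, such as trp, Pxn, repo, Ir25a, nompA and Yp3. The alternatives were DESeq2 1.42.0, limma-voom (limma 3.58.1), median-of-ratios scaling, scaling without genes above 1% of counts, no filter, at least 1 CPM in 3 libraries, no block, and each pair left out.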

Additional observations from a re-analysis of the deposited data

How the results depend on the processing

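Snmp1 (log2 fold change 0.35 to 0.40), Snmp2 (0.67 to 0.76), emp (-0.33 to -0.30), CG40006 (-0.44 to -0.40) and CG10345 (-0.38 to -0.32) kept their calls, and crq stayed uncalled (-0.09 to -0.08), in all 10 alternatives. The change of pes was 0.46 with DESeq2 and 0.39 to 0.55 with 1 pair left out. Without the replicate block santa-maria had -0.32 and was not called, which left 1 member called lower and moved the phagocytosis genes called lower to 1. Among the other family and listed genes it ended the calls of dsb and ced-6. DESeq2 called 653 genes higher and 662 lower, and leaving out 1 pair gave 753 to 1065 and 728 to 1006, with the lowest counts without pair 2. The trichoid and intermediate receptors called lower numbered 0 with DESeq2 (1 at an unadjusted p under 0.05), 2 with no filter and 0 to 2 with 1 pair left out. Pheromone detection genes called lower numbered 5 with no filter and 2 to 5 with 1 pair left out, and phagocytosis genes called lower 1 with DESeq2 and 1 to 2 with 1 pair left out. NimC1 changed sign without a call, over -0.33 to 0.19 with 1 pair left out. The cause of these changes was not tested. The 3 differences between Snmp1 and other genes do not depend on library scaling, and leaving out 1 pair gave -0.38 to -0.27 against Snmp2, 0.31 to 0.36 against Orco and -0.04 to 0.03 against the summed receptors. No scaling moved the median of all genes by more than 0.1 on the log2 scale. Depth limits pes, ninaD, dsb and the family genes with under 100 reads per library.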

Other observations

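Several family genes lie side by side in the genome. On chromosome 2L, pes and CG7227 are 203 bases apart on the same strand, with 255 and 2 reads over the control libraries. ninaD and CG31741 are 647 bases apart, with 7 and 1 reads over the control libraries. These were mostly under 3 reads per library, so the control levels were mostly not resolved. In PCD-blocked libraries ninaD had 8, 5 and 13 reads, and CG31741 had none. On chromosome 2R, emp lies 1114 bases from CG2736 and overlaps CG3829 by 27 exon bases on the opposite strand. Over the control libraries emp had 50065 reads, CG2736 had 22 and CG3829 had 166.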
